A study of Mus musculus with 2 samples.

Results

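The 9 genes described here were chosen by symbol from a list of specific and secretory granule proteins of the neutrophil: Ltf, Camp, Ngp, Lcn2, Mmp8, Chil3, Fcnb, Cd177 and Retnlg. These 9 genes were among 32285 genes in the deposited matrices, of which 24316 had a unique molecular identifier (UMI, 1 captured RNA molecule) in at least 3 of the cells kept. All 9 were found and all 9 had UMIs in both libraries. They were taken from the files by symbol, with earlier results of these data known, and their counts were left out of the clustering of the cells and of the marker lists that name cell types and stages.

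The data were single-cell RNA sequencing of cells from calvarial bone around a defect in C57BL/6 mice (C57BL/6J in the study's methods), collected 7 days after injury. The GA library came from mice given 100 µL of gambogic amide (GA, a small molecule agonist of the nerve growth factor receptor TrkA) by intraperitoneal injection at 1.2 mg/kg in 10% DMSO, and the Control library from mice given 10% DMSO alone. In both groups treatment began 24 h before injury and was given daily for 1 week. Per the study's methods the mice were 2 months old, the defect was 1.8 mm wide and each library was a pool of 5 mice. There was therefore 1 library per condition, so no difference below carries a test or a replicate check, and differences between these pools and differences between the treatments cannot be told apart. All intervals are exact 95% intervals and cover counting error only.

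Specific granules are the second set of secretory granules that a neutrophil builds in the marrow, after the azurophil granules and before the gelatinase granules and secretory vesicles. Their proteins bind iron and its carriers, disrupt bacterial membranes, cut collagen and recognise sugars on microbes, and they are released when the cell meets a target or crosses a vessel wall. Transcription of these genes is known to be concentrated in the myelocyte and metamyelocyte steps under factors such as C/EBP epsilon, and to be low in mature cells, which carry the stored protein.

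The GA library held 9322 barcodes with 182949385 UMIs, and 8380 cells with a median of 10968.5 UMIs were kept. The Control library held 8718 barcodes with 214993030 UMIs, and 7553 cells with a median of 16299 UMIs were kept. The libraries shared 23 barcodes. Cells called neutrophil-like, from markers other than the 9 genes, were 4387 in GA (52.4% of cells kept, median 7029 UMIs) and 2074 in Control (27.5%, median 5083.5 UMIs). All 10 markers of that class were detected in both libraries.

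Neutrophil-lineage cells were divided again into promyelocyte-like cells (led by Elane, Prtn3 and Mpo; 173 in GA and 88 in Control), dividing precursors (Mki67, Top2a; 304 and 157), immature cells (Itgb2l, Cebpe; 1541 and 684), mature cells (Cxcr2, Csf3r; 1475 and 683), mature cells with chemokine genes (Ccl3, Ccl4; 910 and 475) and mature cells with interferon-induced genes (Ifit1, Ifit3; 29 and 22). Each stage held cells of both libraries. Stages were named from whole marker lists, and Cebpe, on the immature list, was higher in promyelocyte-like cells and dividing precursors than in immature cells. A further 130 GA and 76 Control cells of the lineage stood in 2 clusters without a stage. Levels are given as CPM, the UMIs of a gene per 1000000 UMIs of the cell group. Because 3′ UMI counts depend on each transcript's end, levels were compared between stages, cell types and libraries for 1 gene at a time and not between genes.

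The promoters shown are those of Ltf, Camp and Ngp, the 3 genes most alike over clusters of all cells, and of Fcnb. Over the stages Fcnb had the earliest profile, and Ltf peaked at a later stage than Camp and Ngp. Each run covers 250 bases before to 50 bases after the gene's start, read 5′ to 3′ on the gene's strand, from RefSeq on build GRCm38.p6. Capitals mark the letters TTGCNNAA or their reverse complement TTNNGCAA, the form in which C/EBP factors are known to bind.
Ltf (chr9:111019042-111019341, plus strand): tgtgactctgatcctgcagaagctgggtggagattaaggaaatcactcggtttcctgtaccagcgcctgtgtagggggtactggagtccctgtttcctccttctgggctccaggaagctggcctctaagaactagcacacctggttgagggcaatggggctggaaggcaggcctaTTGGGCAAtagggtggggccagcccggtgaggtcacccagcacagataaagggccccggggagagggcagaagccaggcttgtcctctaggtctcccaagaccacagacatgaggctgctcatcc
Camp (chr9:109849407-109849706, minus strand): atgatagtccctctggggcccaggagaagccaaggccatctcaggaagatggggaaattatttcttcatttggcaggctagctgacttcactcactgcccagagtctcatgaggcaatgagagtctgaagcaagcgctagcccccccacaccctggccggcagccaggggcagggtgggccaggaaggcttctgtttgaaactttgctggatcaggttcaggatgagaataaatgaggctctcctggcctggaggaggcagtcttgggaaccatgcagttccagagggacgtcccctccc
Ngp (chr9:110419558-110419857, plus strand): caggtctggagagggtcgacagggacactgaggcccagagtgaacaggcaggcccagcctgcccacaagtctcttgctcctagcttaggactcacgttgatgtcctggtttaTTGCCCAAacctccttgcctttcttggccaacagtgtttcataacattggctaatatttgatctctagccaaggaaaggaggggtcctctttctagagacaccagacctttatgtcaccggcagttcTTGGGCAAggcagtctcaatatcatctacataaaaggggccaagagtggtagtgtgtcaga
Fcnb (chr2:28084829-28085128, minus strand): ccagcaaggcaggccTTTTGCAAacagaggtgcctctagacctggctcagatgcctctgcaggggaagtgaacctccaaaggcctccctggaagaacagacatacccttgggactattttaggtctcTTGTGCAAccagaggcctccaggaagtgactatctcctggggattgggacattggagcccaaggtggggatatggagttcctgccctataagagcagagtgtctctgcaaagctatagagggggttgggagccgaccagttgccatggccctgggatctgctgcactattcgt

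The letters stood in the promoters of 6 of the 9 genes, Ltf, Ngp, Lcn2, Mmp8, Fcnb and Retnlg, against 10.8% of 32544 promoters of the same length. Ngp and Fcnb each held them at 2 places. Camp, whose promoter is printed wholly in lower case, and Chil3 and Cd177 had none in this window. The letters GAGGAA or TTCCTC, which hold the core bound by PU.1, stood in 4 of the 9, Ltf, Lcn2, Mmp8 and Cd177, against 28.1% of all promoters, and no match of either kind lay over one of the other. Matches of letters are a description of these windows and not evidence of binding.

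The first question was where in the lineage each gene was expressed. The 9 genes together took up 10.9% of the UMIs of the median dividing precursor in GA and 12.5% in Control. They took up 9.15% and 8.77% in immature cells, where single cells reached 19.2% and 18.2%. In mature cells the median was 2.83% in GA and 2.60% in Control, and in mature cells with chemokine genes it was 0.439% and 0.162%. Promyelocyte-like cells had low medians, 0.316% and 0.583%, with a wide spread. Of all UMIs of the 9 genes, 93.7% in GA and 93.5% in Control stood in neutrophil-like cells, and 4.10% and 4.71% in progenitor cells, the class that holds most promyelocyte-like cells.

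**Figure D1:**
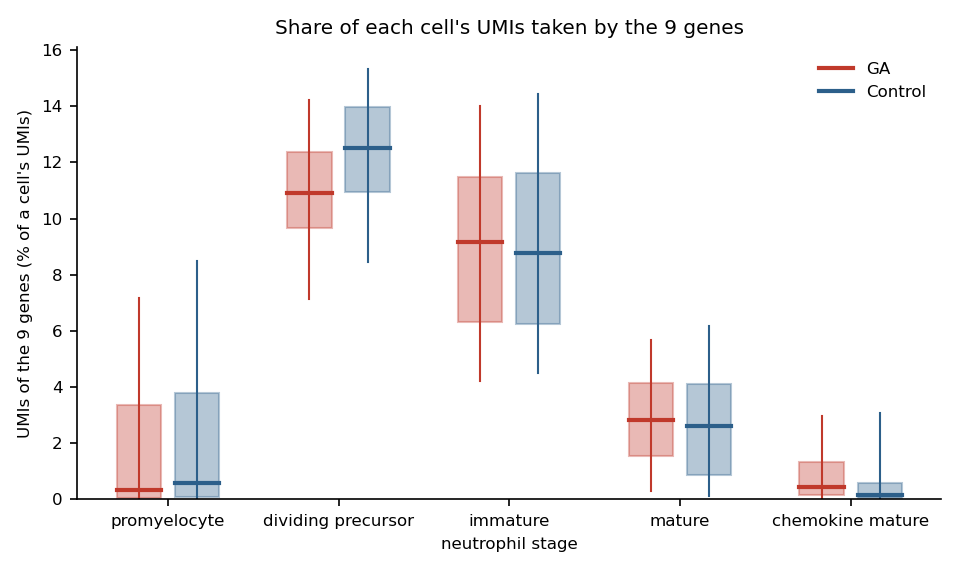
Share of each cell's UMIs that belonged to the 9 genes (y axis, percent) in 5 neutrophil stages of the GA (red) and Control (blue) libraries. The bar is the median, the box spans the quartiles and the line runs from the 5th to the 95th percentile of cells. Medians were highest in dividing precursors, 10.9% in GA and 12.5% in Control, and lowest, in both libraries, in promyelocyte-like cells and in mature cells with chemokine genes.

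Ltf encodes lactotransferrin, the iron-binding protein of specific granules, and lies at 9:111019271-111042767 on the plus strand of GRCm38. In the GA library its level was 201 CPM in promyelocyte-like cells, 7153 in dividing precursors, 9943 in immature cells, 182 in mature cells and 25.1 in mature cells with chemokine genes. In the Control library the same stages had 115, 7210, 9182, 153 and 16.5 CPM. Ltf was thus highest in immature cells, by 1.39-fold over dividing precursors in GA and 1.27-fold in Control.

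Camp encodes cathelicidin, the precursor of an antimicrobial peptide, at 9:109847379-109849617 on the minus strand. In GA it stood at 10022 CPM in promyelocyte-like cells, 45034 in dividing precursors, 25209 in immature cells, 388 in mature cells and 70.6 in mature cells with chemokine genes. In Control the values were 14746, 57452, 28670, 722 and 35.2 CPM. Camp peaked a step before Ltf, in dividing precursors, at 1.79-fold (GA) and 2.00-fold (Control) of its level in immature cells.

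Ngp encodes neutrophilic granule protein, a cathelicidin- and cystatin-related protein, at 9:110419747-110423012 on the plus strand. Its GA levels were 3718 CPM in promyelocyte-like cells, 33391 in dividing precursors, 29016 in immature cells, 1557 in mature cells and 147 in mature cells with chemokine genes. The Control levels were 3845, 36584, 28630, 1709 and 137 CPM. Dividing precursors were higher than immature cells by 1.15-fold in GA and 1.28-fold in Control, so that these neighbours differed little for Ngp.

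Lcn2 encodes lipocalin 2, which binds the iron carriers of bacteria, at 2:32384633-32388252 on the minus strand. The GA library had 804 CPM in promyelocyte-like cells, 12379 in dividing precursors, 13949 in immature cells, 3517 in mature cells and 1703 in mature cells with chemokine genes. The Control library had 560, 10979, 11644, 2006 and 587 CPM. The immature level was only 1.13-fold (GA) and 1.06-fold (Control) that of dividing precursors, and the gene kept a measurable level in mature cells of both libraries.

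Mmp8 encodes neutrophil collagenase, at 9:7558456-7568485 on the plus strand. It was nearly undetected before the immature stage, with 5.53 CPM in GA (42 UMIs) and 2.11 in Control (6 UMIs) in promyelocyte-like cells and 41.8 and 41.9 CPM in dividing precursors. Immature cells had 2206 CPM in GA and 2365 in Control, mature cells 1888 and 1738, and mature cells with chemokine genes 580 and 358. Immature and mature cells differed by 1.17-fold in GA and 1.36-fold in Control, and this order turned under 3 other clusterings of the cells.

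Chil3 encodes chitinase-like 3 (Ym1), a secreted lectin, at 3:106147554-106167564 on the minus strand. In GA its level was 1370 CPM in promyelocyte-like cells, 9715 in dividing precursors, 3181 in immature cells, 49.9 in mature cells and 23.5 in mature cells with chemokine genes. In Control it was 1273, 9638, 3577, 27.3 and 22.0 CPM. Dividing precursors were 3.05-fold (GA) and 2.69-fold (Control) higher than immature cells, the widest step between the leading pair of stages among the 9 genes. Chil3 has a near-identical copy, Chil4, which had 0.358 CPM in GA and 0.261 in Control in neutrophil-like cells, and reads that fit both copies could have been divided or dropped in counting.

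Fcnb encodes ficolin B, a lectin that can start the lectin pathway of complement, at 2:28076378-28084885 on the minus strand. In GA it had 699 CPM in promyelocyte-like cells, 826 in dividing precursors and 104 in immature cells, and only 11 UMIs in mature cells and 2 in mature cells with chemokine genes. In Control it had 1183, 1062 and 129 CPM, then 2 UMIs in mature cells and 0 of 1816449 UMIs in mature cells with chemokine genes, where 3 UMIs would equal 1.65 CPM. The leading stage was the dividing precursor in GA and the promyelocyte-like cell in Control, with ratios of 1.18 and 1.11 to the next stage. Fcnb was the 1 gene of the 9 whose level in promyelocyte-like cells was close to that in dividing precursors.

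Cd177 encodes a surface glycoprotein held on the membrane of specific granules and at the cell surface, at 7:24743983-24760311 on the minus strand. GA levels were 46.5 CPM in promyelocyte-like cells, 768 in dividing precursors, 1069 in immature cells, 305 in mature cells and 66.0 in mature cells with chemokine genes. Control levels were 27.5, 638, 900, 240 and 40.2 CPM. Immature cells were higher than dividing precursors by 1.39-fold in GA and 1.41-fold in Control.

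Retnlg encodes resistin-like gamma, a small secreted protein of the neutrophil, at 16:48872621-48874496 on the plus strand. It had 93.9 CPM in GA and 86.7 in Control in promyelocyte-like cells and 611 and 687 CPM in dividing precursors. It then had 12474 and 13627 CPM in immature cells, 23731 and 23727 in mature cells, and 7540 and 5521 in mature cells with chemokine genes. Retnlg was the 1 gene of the 9 with its highest level in mature cells, by 1.90-fold (GA) and 1.74-fold (Control) over immature cells. It was also the 1 gene of the 9 with at least 200 UMIs in the mature cells with interferon-induced genes, at 2587 CPM in GA and 2948 in Control. There 5 of 29 GA cells held 85.6% of its UMIs and 5 of 22 Control cells held 83.6%. The median cell had 372 CPM in GA and 608 in Control.

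**Figure D2:**
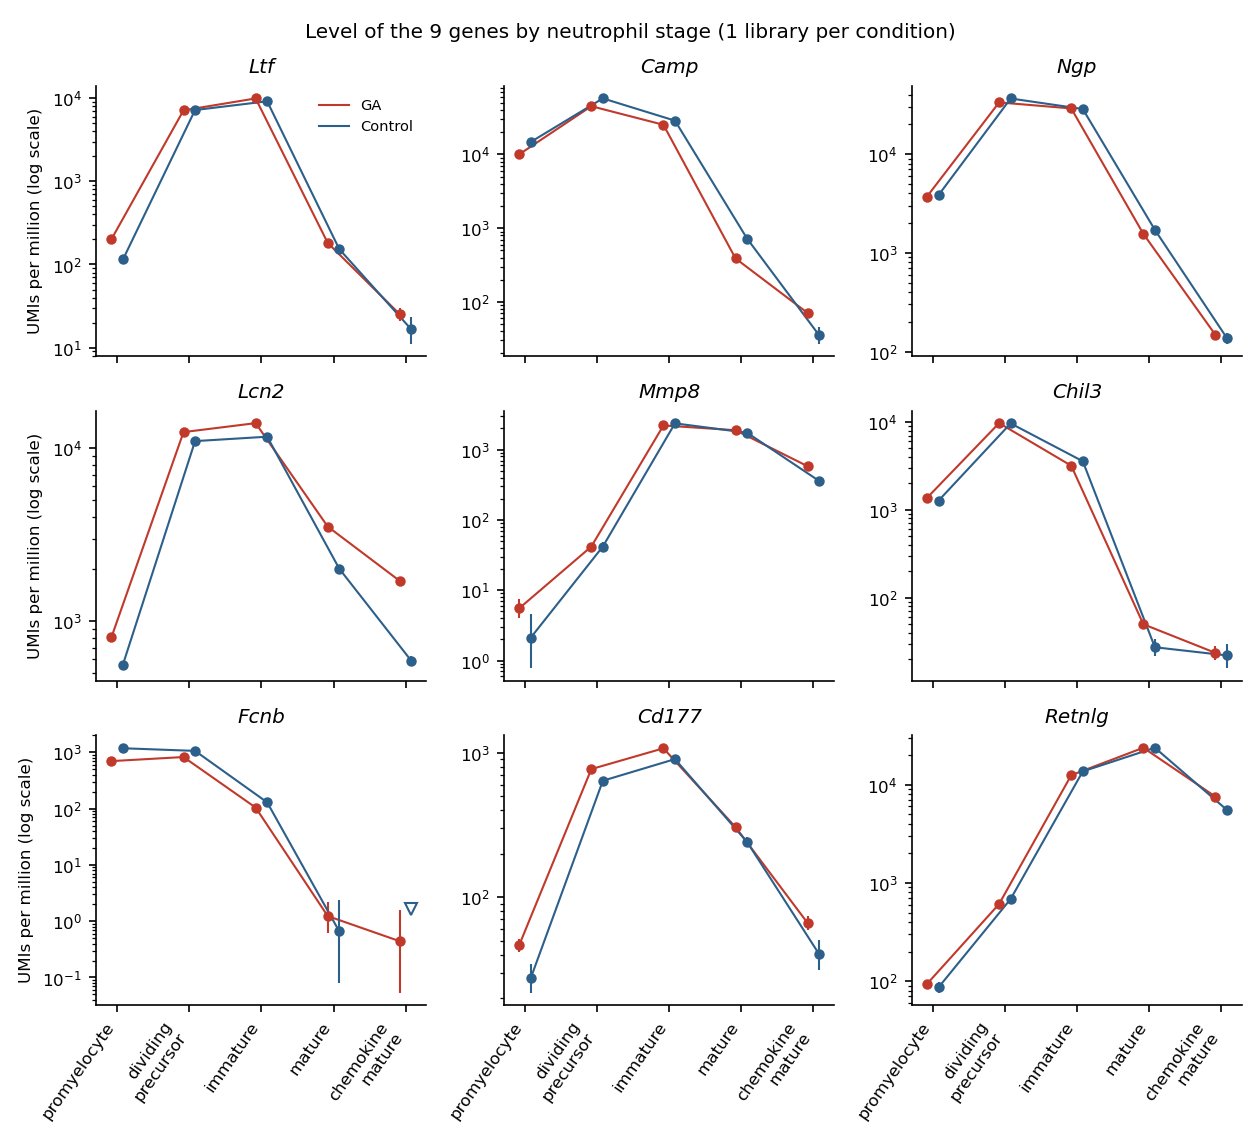
Level in CPM (y axis, log scale) of each gene in 5 neutrophil stages, GA in red and Control in blue, with exact 95% counting intervals as bars. The open triangle marks the level that 3 UMIs would give where no UMI was seen (Fcnb in Control mature cells with chemokine genes). Camp, Ngp and Chil3 peak in dividing precursors, Ltf, Lcn2, Mmp8 and Cd177 in immature cells and Retnlg in mature cells, while Fcnb starts high.

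In both libraries 8 of the 9 genes had their highest level no later than the immature stage, Retnlg being the exception. The share of all genes that peak this early is not given, so the count has no background beside it. Within the immature stage, whose cells fell into 5 clusters, the genes did not move together. Camp ranged from 7854 to 35600 CPM over these clusters in GA and from 9300 to 41899 in Control. Chil3 ranged over 9.46-fold in GA and 9.15-fold in Control. Retnlg ranged from 3996 to 25163 CPM in GA and from 2823 to 27303 in Control. Fcnb had no UMI in 1 of the Control clusters. Cd177 was the most even, with a range of 1.26-fold in GA and 1.40-fold in Control.

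In single immature cells 8 of the 9 genes, Fcnb left out, were correlated in pairs. After each cell was thinned to 2000 UMIs, Camp and Ngp had a Spearman correlation of 0.81 over GA cells and 0.87 over Control cells, and Camp and Chil3 0.80 and 0.86. Camp and Retnlg ran in opposite directions, at −0.77 and −0.84, and so did Camp and Mmp8, at −0.54 in both. Mmp8 and Retnlg went together, at 0.51 and 0.55. Cd177 stood apart from both sets, at 0.12 and 0.14 with Camp and −0.17 and −0.15 with Retnlg. These cells share 1 library and a fixed UMI total in which high genes displace others, so the correlations are descriptions only.

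The genes with the profile most like each member were sought among 15319 genes. Profiles were compared over 68 sums of clusters by library, drawn from all cells and each with at least 50 cells. Ltf, Camp and Ngp were nearest to one another (Pearson r of log2(CPM + 1) from 0.96 to 0.98), followed for each by Itgb2l, an integrin subunit. Lcn2 was most like S100a8, Wfdc21 and S100a9 (0.98, 0.98 and 0.97). Cd177 was most like Ifitm6, Lcn2 and Mapk13 (0.97, 0.96 and 0.96). Retnlg was most like the chemokine receptor gene Cxcr2 (0.97), and Mmp8 like Bmx and the formyl peptide receptor gene Fpr2 (both 0.95). Chil3 was most like Scp2 and Cebpe (0.85 and 0.84), the latter a regulator of granule genes, and Fcnb like Mogat2 and the progenitor gene Ms4a3 (0.86 and 0.85). Among the 9 themselves the least alike pair was Fcnb and Retnlg (0.06). All these points come from 2 libraries and share their depth and any free RNA.

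The second question was how the GA library differed from the Control library. Over all cells kept, each of the 9 genes was higher in GA, with log2 ratios of GA over Control from 1.07 (Fcnb, 98.4 against 47.0 CPM) to 1.96 (Lcn2, 2683 against 691 CPM) and a median of 1.71. The median of all 15319 genes with at least 200 UMIs over both libraries was −0.08. All 9 were at least 1.5-fold higher in GA, as were 8.83% of all genes. The libraries differed in the share of neutrophil-like cells, and the levels of the 9 genes were therefore recomputed with each cell class of GA weighted by its share of UMIs in Control. At that mix the log2 ratios ran from −0.68 (Fcnb) to 0.38 (Lcn2), with Ltf at 0.18, Camp at −0.34, Ngp at −0.01, Mmp8 at 0.20, Chil3 at −0.02, Cd177 at 0.34 and Retnlg at 0.17. At an equal mix no member was 1.5-fold higher in GA, and Fcnb was over 1.5-fold lower. The weighting was not computed for all genes, so how many of them would differ by 1.5-fold at that mix is not known.

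**Figure D3:**
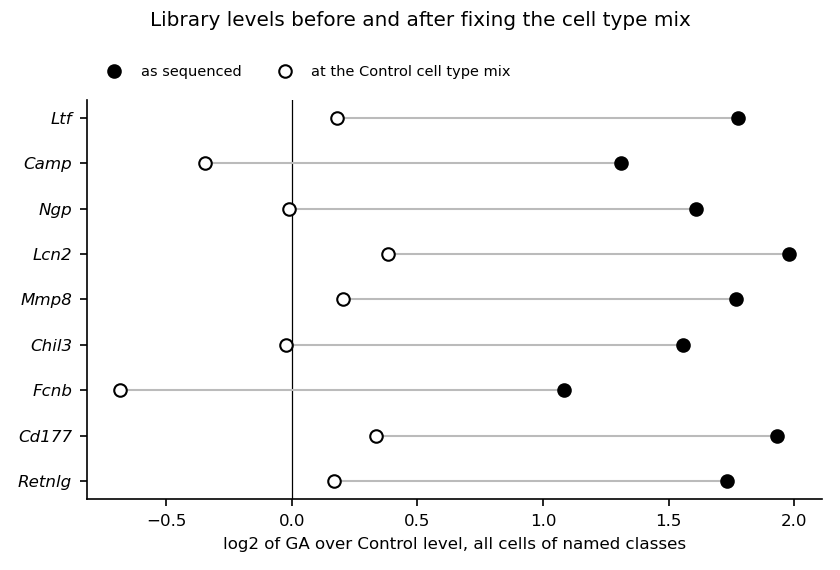
log2 of the GA over the Control level (x axis) of each gene over the cells of named classes, as sequenced (filled) and with the GA classes weighted as in Control (open). The filled points lie between 1.08 and 1.98 and the open points between −0.68 and 0.38.

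Among neutrophil-like cells alone, 5 of the 9 genes were higher in GA and 4 were lower, and the median log2 ratio was 0.06, beside −0.13 for all 8182 genes with enough UMIs. Fcnb was at 223 CPM in GA and 331 in Control (log2 ratio −0.57, interval −0.62 to −0.52). Camp was at 20962 and 26556 CPM (−0.34). Lcn2 was at 9872 and 8059 CPM (0.29) and Cd177 at 720 and 590 CPM (0.29). Of all genes 26.2% were higher in GA. None of the 9 was at least 1.5-fold higher in GA, where 0.856% of all genes were, and none was 1.5-fold lower, where 4.9% were, although Fcnb passed that size under 3 of 15 other settings. The neutrophil reference genes S100a8 and S100a9 had log2 ratios of 0.20 and 0.16 in the same cells.

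In promyelocyte-like cells 8 of the 9 genes had at least 200 UMIs, 5 of them higher in GA, where 52.9% of all genes were. Fcnb stood at 699 CPM in GA and 1183 in Control, a log2 ratio of −0.76 (−0.82 to −0.70), and it was the 1 member at least 1.5-fold lower in GA, where 2.2% of all genes were. The median cell had 519 CPM of Fcnb in GA and 1200 in Control. Camp was lower in GA as well, at −0.56 (−0.57 to −0.54), an interval that does not cover spread between cells. The 5 cells richest in Camp held 12802 of its 76120 UMIs in GA and 12573 of 41847 in Control. Without them the log2 ratio of Camp was −0.36. Over 15 other settings it kept its sign and ran from −1.36 to −0.27. Ltf (201 against 115 CPM, log2 ratio 0.81) and Cd177 (46.5 against 27.5 CPM, 0.76) were at least 1.5-fold higher in GA, where 1.4% of all genes were. Both rested on few cells. The 5 cells richest in Ltf held 51.6% of its UMIs in GA and 72.1% in Control, and those richest in Cd177 held 21.2% and 59.0%. In Control the 5 richest cells held 235 of 326 Ltf UMIs and 46 of 78 Cd177 UMIs, and Cd177 passed the limit of 200 UMIs through its 353 in GA. Without these cells the log2 ratio of Ltf was 1.55 and that of Cd177 1.64. Leaving out 5 cells took a larger share of the 88 Control cells than of the 173 GA cells, so the trimming was unequal. Lcn2 had 804 and 560 CPM, a log2 ratio of 0.52 (0.44 to 0.60) that was 0.96 without its 5 richest cells. S100a8 and S100a9 were lower in GA here, at −0.16 and −0.27.

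In dividing precursors all 9 genes had enough UMIs and none differed by 1.5-fold, where 0.919% of all genes were higher and 1.74% lower by that much. Camp (−0.35) and Fcnb (−0.36) were again the lowest in GA. Cd177 (0.27, interval 0.20 to 0.33) and Lcn2 (0.17, 0.16 to 0.19) were the highest. Ltf, Chil3 and Mmp8 had intervals that included 0, at −0.01, 0.01 and 0.00. The median of the 9 was −0.01, beside −0.02 for all genes.

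Immature cells, where the 9 genes had the most UMIs, gave a like picture. None of the 9 differed by 1.5-fold, where 0.722% of all genes were higher and 4.18% lower by that much, and 4 of the 9 were higher in GA, where 28.6% of all genes were. Lcn2 (13949 against 11644 CPM) and Cd177 (1069 against 900 CPM) had log2 ratios of 0.26 and 0.25, Fcnb −0.31 and Camp −0.19. The median of the 9 was −0.10, beside −0.14 for all genes. S100a8 and S100a9 had 0.22 and 0.12.

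Wider differences stood in mature cells. Lcn2 was at 3517 CPM in GA and 2006 in Control, a log2 ratio of 0.81 (0.77 to 0.85). The median mature cell had 2626 CPM of Lcn2 in GA and 865 in Control, and 88.4% of GA cells against 66.6% of Control cells had a Lcn2 UMI once thinned to 2000 UMIs (94.5% and 75% unthinned). In droplet data free RNA also gives such UMIs, and B-like cells, taken as a background class, had 5.65% and 1.39% thinned and 22.2% and 4.66% unthinned, at median depths of 6467.5 and 5934 UMIs.

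Camp went the other way in mature cells, at 388 CPM in GA and 722 in Control, a log2 ratio of −0.89 (−0.97 to −0.82). The median cell had none in either library, and the 90th percentile was 366 CPM in GA and 1138 in Control. A Camp UMI was present in 34.0% of GA cells and 26.9% of Control cells (17.8% and 20.3% thinned), beside 27.6% and 14.7% of B-like cells (6.85% and 2.95% thinned). Without the 5 cells richest in Camp in each library the log2 ratio was −0.96. Camp alone of the 9 was at least 1.5-fold lower in GA mature cells, where 4.19% of all genes were.

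Retnlg did not differ in mature cells beyond its counting interval, with a log2 ratio of 0.00 (−0.01 to 0.01) from 211735 and 72138 UMIs. Mmp8 (0.12) and Cd177 (0.34) were somewhat higher in GA and Ngp (−0.13) lower. Ltf was at 0.25, from 1620 and 465 UMIs, with a sign that turned under 5 of 15 other settings. Chil3 had 49.9 CPM in GA (445 UMIs) and 27.3 in Control (83 UMIs), a log2 ratio of 0.87 (0.53 to 1.23) that was 0.04 when doublets were kept and turned to −0.31 with another clustering seed. It and Lcn2 were the 2 members at least 1.5-fold higher in GA, where 2.28% of all genes were. S100a8 and S100a9 were at 0.26 and 0.21.

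In mature cells with chemokine genes the 6 members with at least 200 UMIs were all higher in GA, where 30.9% of all genes were, and their median log2 ratio was 0.71, beside −0.15 for all genes. Lcn2 had the widest difference, 1703 CPM in GA from 7740 UMIs and 587 in Control from 1067 UMIs, a log2 ratio of 1.54 (1.44 to 1.63). The median cell had 908 CPM of Lcn2 in GA and 0 in Control, and 70.0% of GA cells and 35.1% of Control cells had a UMI of it after thinning (79.2% and 44.2% unthinned). Without the 5 cells richest in Lcn2 the ratio was 1.74, a step that took a larger share of the 475 Control than of the 910 GA cells.

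Mmp8 (0.70, interval 0.57 to 0.82) and Cd177 (0.72, 0.34 to 1.11) were also at least 1.5-fold higher in these cells, where 2.75% of all genes were, as was Camp (70.6 against 35.2 CPM, 1.00, 0.61 to 1.41). Retnlg was at 0.45 (0.42 to 0.48) and Ngp at 0.11 (−0.10 to 0.32). The Camp value rested on 321 of 4544141 UMIs in GA and 64 of 1816449 in Control. It was 1.44 without its 5 richest cells, and its direction turned under 4 of 13 other settings. B-like cells, the background class, held 214 Camp UMIs of 6559973 in GA and 93 of 6135604 in Control. The part of free RNA in the Camp value was not tested. Camp and Cd177 (300 and 73 UMIs) had under 200 UMIs in Control and passed the limit through GA. S100a8 and S100a9, which all neutrophils express, had 0.67 and 0.80 in the mature cells with chemokine genes. There 12.0 Lcn2 UMIs in GA and 6.91 in Control were counted per 1000 UMIs of S100a8 and S100a9. Their part in the higher member levels was not tested.

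**Figure D4:**
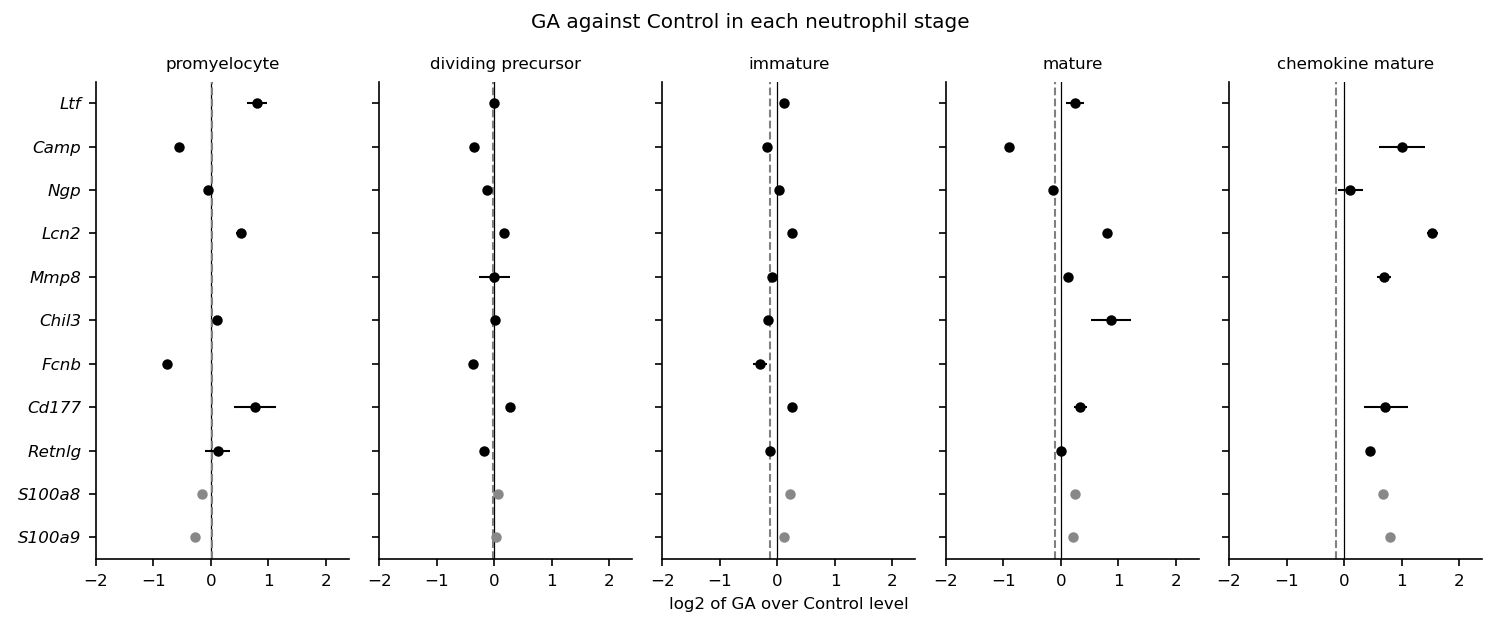
log2 of the GA over the Control level (x axis) of each gene with at least 200 UMIs in a stage, with exact 95% counting intervals, beside S100a8 and S100a9 in grey. The dashed line is the median of all genes in the stage. Lcn2 lies to the right of it in all 5 stages, from 0.17 in dividing precursors to 1.54 in mature cells with chemokine genes, and Fcnb to the left wherever it is drawn.

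Over the 16 lineage clusters with at least 20 cells in each library, monocyte progenitors left out, Lcn2 was higher in GA in all 16 (log2 ratios from 0.08 to 2.91) and Cd177 in 15 of 16. No lower limit of UMIs was applied to these counts. The 2.91 came from the mature cells with interferon-induced genes, with 103 GA and 9 Control UMIs, where Cd177 had 12 and 1. Camp was lower in GA in 12 of 16. Ngp and Retnlg were each higher in 8 and lower in 8. Fcnb was lower in 6 and higher in 1, and had no UMI in a library in the other 9. S100a8 was higher in GA in 15 of 16. The clusters share their library and are not replicates.

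The third question was whether the 9 genes were expressed outside the neutrophils. In monocyte-like cells (564 in GA, median 23609.5 UMIs, and 397 in Control, median 12567 UMIs), 8 of the 9 genes were higher in GA, where 52.1% of all genes were, and 7 by at least 1.5-fold, where 2.43% of all genes were. The limit of 200 UMIs was set on both libraries together. In Control, Ltf (23 UMIs), Camp (76), Ngp (76), Retnlg (64) and Fcnb (186) fell below it and passed through GA, where they were higher. The log2 ratios of Ltf, Camp, Ngp, Lcn2 and Retnlg lay between 2.30 and 2.82, beside 2.82 for S100a8 and 2.67 for S100a9. With doublets kept in, these ratios were 0.60 for Ltf, 0.09 for Camp, 0.48 for Ngp, 1.58 for Lcn2 and 0.56 for Retnlg. Retnlg was lower in monocyte-like than in B-like cells in both libraries, so no ratio remained once the B-like level was subtracted. B-like cells held 458 Retnlg UMIs of 6559973 in GA and 236 of 6135604 in Control. There 5 cells held 54.6% and 78.4% of them. In GA 5 of 564 cells held 52.6% of the Ltf, 52.2% of the Camp and 42.3% of the Ngp UMIs, against 21.7%, 13.2% and 13.2% in Control. Without the 5 richest cells the log2 ratio was 1.94 for Ltf, 1.42 for Camp, 1.75 for Ngp, 1.88 for Retnlg and 2.97 for Lcn2. Chil3 differed far less, at 1469 CPM in GA and 1190 in Control (0.30, interval 0.27 to 0.34), as did Fcnb (44.8 against 28.5 CPM, 0.65) and Mmp8 (99.0 against 54.7 CPM, 0.86).

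Cd177 had the opposite sign in monocyte-like cells, with 24.6 CPM in GA from 385 UMIs and 48.6 in Control from 317 UMIs, a log2 ratio of −0.98 (−1.20 to −0.76). A UMI of Cd177 was present in 4.61% of GA and 9.85% of Control monocyte-like cells after thinning (34.0% and 39.3% unthinned), beside 0.171% and 0.347% of B-like cells (1.19% and 1.04% unthinned). It was the 1 member at least 1.5-fold lower in GA in these cells, where 4.35% of all genes were. The class was made of 2 clusters, of which the one led by Ccr2 and Adgre4 held 297 GA and 277 Control cells and the one led by F13a1 and Nrg1 held 267 and 120.

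Counts of a gene per UMI of S100a8 and S100a9 were set beside the same ratio in neutrophil-like cells, and the genes differed widely in it. In monocyte-like cells Chil3 stood at 31.1-fold of its neutrophil ratio in GA and 135-fold in Control. Fcnb stood at 15-fold and 38.5-fold, Mmp8 at 4.91-fold and 17.4-fold and Cd177 at 2.54-fold and 36.8-fold. Lcn2 was at 1.83-fold and 1.91-fold. Ltf, Camp, Ngp and Retnlg were below the neutrophil ratio, between 0.204 and 0.299 of it in GA and between 0.196 and 0.379 in Control. Chil3 was present in 62.9% of GA and 52.0% of Control monocyte-like cells after thinning (80.3% and 68.0% unthinned), beside 1.88% and 0.693% of B-like cells (9.90% and 3.28% unthinned).

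In macrophage-like cells (758 in GA and 1394 in Control) 7 of the 9 genes had at least 200 UMIs and all 7 were at least 1.5-fold higher in GA, where 3.51% of all genes were. Their log2 ratios ran from 1.5 (Mmp8) to 3.35 (Retnlg), beside 2.88 for S100a8 and 3.23 for S100a9. Ltf had 159 UMIs in Control and passed the limit of 200 through its 509 in GA. Against S100a8 and S100a9, Chil3 stood at 3.96-fold (GA) and 6.95-fold (Control) of the neutrophil ratio and Mmp8 at 2.60-fold and 7.22-fold. A few GA cells held much of some sums. The 5 cells richest in Retnlg held 44.8% of its UMIs in GA and 3.64% in Control, those richest in Ngp 44.2% and 3.21%, those richest in Ltf 37.5% and 6.92%, and those richest in Chil3 25% and 31.0%. Without these cells the log2 ratio of Retnlg was 2.56, that of Ngp 1.53, that of Lcn2 2.61 and that of Chil3 2.02. Lcn2 was at 1.04-fold in both libraries.

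Mesenchymal cells (818 in GA and 1658 in Control) lie outside the blood lineages. Of the 9 genes 8 had enough UMIs and all 8 were at least 1.5-fold higher in GA, with log2 ratios from 2.03 (Chil3) to 3.03 (Lcn2), where 4.34% of all genes were. Among 818 GA cells, 5 held 55.5% of the Ltf, 52.9% of the Camp, 50.6% of the Ngp and 45.6% of the Lcn2 UMIs, beside 37.4%, 35%, 40.7% and 37.8% in Control. Without the 5 richest cells of each library the log2 ratios ran from 1.76 (Camp) to 2.98 (Cd177). S100a8 and S100a9 were at 3.11 and 2.95. The levels were low, 65.7 CPM in GA and 8.07 in Control for Lcn2. Mmp8 (132 UMIs) and Cd177 (49 UMIs) were below 200 UMIs in Control. Per UMI of S100a8 and S100a9 all 9 genes lay between 0.459 and 1.45 of the neutrophil ratio in GA and between 0.794 and 1.43 in Control. In B-like cells the same ratios lay between 0.522 and 1.94 in GA and between 0.356 and 2.41 in Control. The part of free neutrophil RNA in the member UMIs of these classes was not tested.

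**Figure D5:**
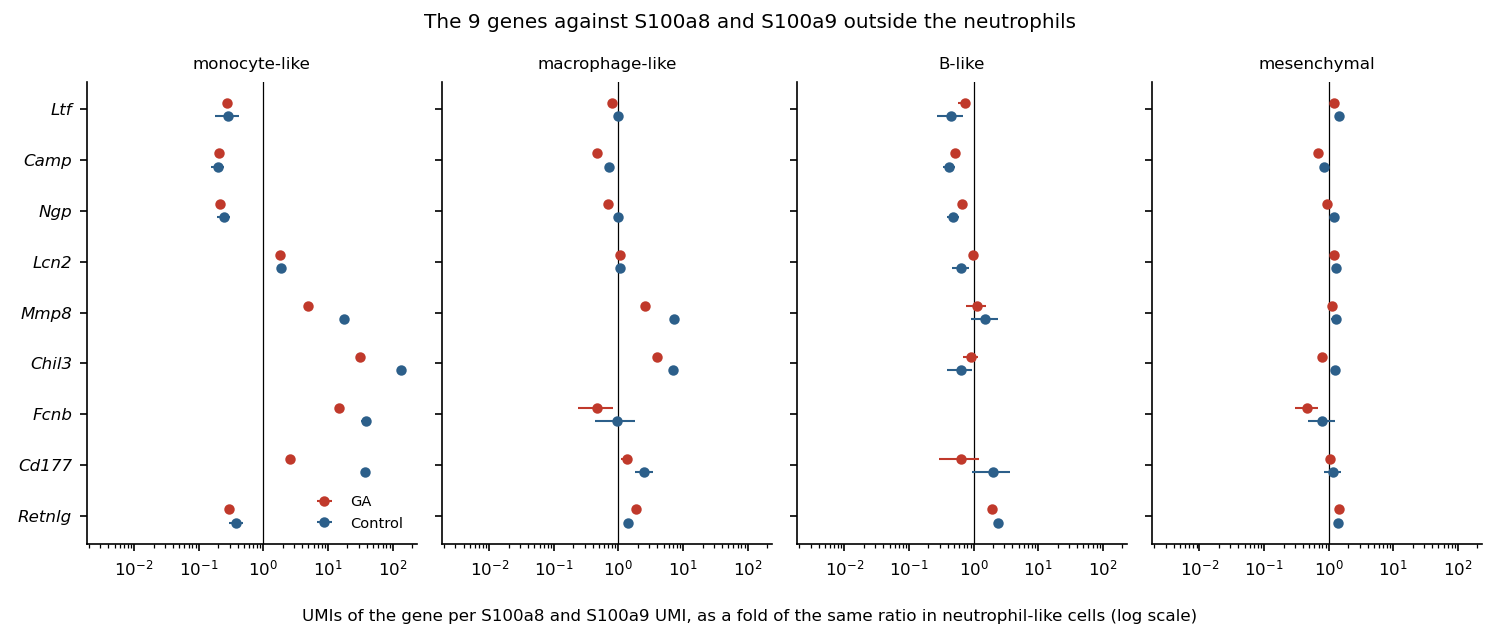
UMIs of each gene per UMI of S100a8 and S100a9, as a fold of the same ratio in neutrophil-like cells (x axis, log scale), in 4 cell classes of GA (red) and Control (blue), with exact 95% counting intervals. Points resting on fewer than 4 UMIs are not drawn. The genes lie around 1 in mesenchymal cells, while Chil3, Fcnb, Mmp8 and Cd177 lie above 1 in monocyte-like cells, at 135-fold for Chil3 in Control.

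Other genes of the granule programme are given for comparison. Of 10 further genes of specific granule content or membrane, 9 had enough UMIs in neutrophil-like cells, 7 of them higher in GA, where 26.2% of all genes were. Hp, the haemoglobin-binding haptoglobin, had 1474 CPM in GA and 1125 in Control (log2 ratio 0.39), and Olfm4, olfactomedin 4, had 78.1 and 128 CPM (−0.71). In promyelocyte-like cells all 8 of these genes with enough UMIs were lower in GA, where 52.9% of all genes were higher, and their median was −0.32, beside 0.02 for all genes, among them Lyz2 (lysozyme, 632 against 993 CPM). Of 6 azurophil granule genes 5 had enough UMIs in promyelocyte-like cells and none differed by 1.5-fold. Mpo, Elane, Prtn3 and Ctsg of this list were also markers by which these cells were named. The comparison was therefore not independent of that naming. Of all genes there, 1.4% were higher and 2.2% lower by that much. Elane (neutrophil elastase) was at 11185 and 13521 CPM and Prtn3 (proteinase 3) at 12432 and 10425. Of 3 gelatinase granule genes 2 were higher in GA in neutrophil-like cells, and Mmp9, gelatinase B, had 1594 and 1262 CPM (0.34).

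The 7 regulators of granule genes all had enough UMIs in neutrophil-like cells, 2 of them higher and 5 lower in GA, none by 1.5-fold. In these cells 26.2% of all genes were higher in GA, 0.856% by at least 1.5-fold, and 4.9% were 1.5-fold lower. The same shares stand beside the counts of the lists that follow. Cebpe, which encodes C/EBP epsilon, had 353 CPM in GA and 375 in Control in promyelocyte-like cells, 454 and 413 in dividing precursors, 190 and 201 in immature cells and 15.8 and 26 in mature cells. Of 7 genes of granule release 3 were higher and 4 lower in GA, none by 1.5-fold, with Rab27a at 130 and 123 CPM. Of 10 genes for receptors, inhibitors or partners of the 9 proteins, 5 had enough UMIs in neutrophil-like cells and 3 were higher in GA. The lower ones were the metalloproteinase inhibitor gene Timp1 (4.98 against 11.3 CPM, −1.18) and Lrp1 (7.23 against 11.5 CPM, −0.68), a receptor for Ltf protein. The part of free RNA from other cell types in these low levels of Timp1 and Lrp1 was not tested. Slc22a17 and Lrp2, whose products bind lipocalin 2, were among those with too few UMIs.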

How the data were processed

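Per the labels and the study's methods, the authors aligned 10x Genomics 3′ libraries to mm10 with Cell Ranger and deposited a filtered matrix of UMI counts per gene and barcode for each library, with no normalization. The matrix headers give version 7.0.1. The labels' dose and duration are used here, and the methods state 2 mg/kg and 4 weeks.

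From these counts, cells with 500 to 140000 UMIs, 200 to 9500 genes and at most 15% mitochondrial UMIs were kept, and the 656 GA and 540 Control cells with the highest Scrublet scores were removed at 0.8% doublets per 1000 cells, since the automatic threshold called 0 and 39. Pearson residuals of 2000 variable genes without the 9 genes, 50 components, Harmony and Leiden clustering (leidenalg 0.10.2, Python 3.11.15) gave 32 clusters. The 6977 lineage cells were clustered again. Scrublet was run in scanpy 1.11.5, and Harmony was coded from its published description. Clusters were named by marker lists without the 9 genes. A cluster of 140 GA and 190 Control cells, led by Rgs5 with macrophage genes, matched the pericyte markers and was left out of the named classes. A further 152 GA and 74 Control cells stood in a cluster that stayed unnamed. UMIs were summed per group and library and compared as CPM for genes with at least 200 UMIs over both libraries, with exact conditional binomial intervals. "At least 1.5-fold" is a rule of size and not a test. The calculation was tested on simulated data. Both matrices were read in full, and no p-value was computed.

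The genes named are the 9, S100a8 and S100a9, up to 4 genes of each list of granule genes, and the 3 genes most like each member in profile. The members and lists were chosen with earlier results of these data known, and the rules that name clusters were chosen once values were visible.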

Additional observations from a re-analysis of the deposited data

Results flagged for a closer look

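Camp was the 1 gene whose GA and Control levels differed by at least 1.5-fold in opposite directions in neighbouring stages. The log2 ratio of GA over Control was −0.89 in mature cells and 1.00 in mature cells with chemokine genes. This difference between the stages was not tested, since each condition has 1 library. The mature value kept its sign under every alternative run, from −1.24 to −0.30. The value in mature cells with chemokine genes came from 321 GA and 64 Control UMIs, in which 5 cells held 14.6% and 37.5%, and it did not keep its sign. B-like cells, the background class, also held more Camp in GA, 214 of 6559973 UMIs against 93 of 6135604 in Control. The part of free RNA in the value for mature cells with chemokine genes was not tested.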

How the results depend on the processing

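The median log2 ratio of the 9 genes in neutrophil-like cells (0.06) was 0.076 without doublet removal, 0.046 with a 10% mitochondrial limit, 0.071 without Harmony, 0.043 at Leiden resolution 0.5, 0.19 relative to the median of all genes, 0.070 after thinning and 0.070 as a mean over cells. In immature cells (−0.10) it was −0.036 without doublet removal, −0.023 with the 10% limit, −0.034 without Harmony, −0.022 and −0.060 at resolutions 0.5 and 2, −0.032 with Leiden seed 2, −0.0080 with log1p values, −0.032 with the 9 genes among the variable genes, 0.035 relative to all genes and −0.051 after thinning. In mature cells Fcnb, with 11 GA and 2 Control UMIs, was left out of the median (0.18). That median was −0.013 without doublet removal, 0.019 with the 10% limit, −0.012 without Harmony and −0.018 with seed 2. It was 0.055 with log1p and −0.027 with the 9 among the variable genes. The share of member UMIs in neutrophil-like cells (93.7% in GA, 93.5% in Control) was 94.4% and 92.4% without doublet removal, 95.2% and 94.5% with the 10% limit, 95.4% and 96.3% without Harmony, 95.2% and 94.4% at resolution 0.5, 89.5% and 89.9% with log1p, 95.2% and 95.5% with the 9 among the variable genes and 97.5% and 97.1% after thinning, and 93.6% in Control with at least 2000 UMIs per cell.

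Among 33 ratios of at least 1.5-fold, most of them in monocyte-like, macrophage-like and mesenchymal cells, the sign of the computed value turned for 3. In those cell classes the part of free RNA was not tested. Chil3 in mature cells turned with seed 2 (−0.31). Camp in mature cells with chemokine genes turned without Harmony (−0.68), at resolution 0.5 (−0.23) and with seed 2 (−1.46). It also turned with at least 2000 UMIs (−1.11). Retnlg in monocyte-like cells had −0.41 after subtracting the B-like level. There the subtracted levels of both libraries were negative, so the value gives no direction. Among 40 smaller ratios the sign turned for 17 under at least 1 alternative, including Ltf in mature cells (−0.46 to 1.65) and Ngp in immature cells (−0.036 to 0.15) and in mature cells with chemokine genes (−0.57 to 0.67). The cause was not tested. Lcn2 in mature cells with chemokine genes was at least 1.5-fold higher in GA under all 15 alternatives (0.85 to 1.74), Fcnb in promyelocyte-like cells 1.5-fold lower under all 15 (−1.49 to −0.62) and Cd177 in monocyte-like cells under all 14 (−1.30 to −0.84). Lcn2 in mature cells passed 1.5-fold under 12 of 15 (0.53 to 1.05) and Camp under 13 of 15 (−1.24 to −0.30). Between 7 and 8 genes peaked no later than the immature stage, Mmp8 moving to mature cells under 3 clusterings. Leaving out the 5 richest cells was chosen after seeing the data. So were the alternatives for stages other than immature and mature and for monocyte-like, macrophage-like and mesenchymal cells. Leaving out 5 cells per library takes a larger share where a library has fewer cells, so it trims GA and Control unequally. Low UMI counts limit the mature stages, above all for Fcnb, Chil3 and Ltf. No paired analysis was possible because each condition has 1 library.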

Other observations

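In plasmacytoid dendritic-like cells (74 in GA and 72 in Control) Camp had 663 CPM in GA from 791 UMIs and 13.2 in Control from 11 UMIs, and 5 cells held 96.3% of the GA UMIs. In T or NK-like cells Retnlg had 235 CPM in GA from 443 UMIs and 10.2 in Control from 18 UMIs, while S100a8 had 735 and 59.9 CPM in the same cells. In basophil or mast-like cells Lcn2 had 118 CPM in GA from 43 UMIs and 68.6 in Control from 25 UMIs. A UMI of Lcn2 was present in 48.5% of 33 GA cells and 32.4% of 34 Control cells of that class, beside 28.1% and 15.2% of those thinned to 2000 UMIs.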
